A study of Mus musculus with 18 samples.

Results

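The genes of cholesterol synthesis, uptake and export were followed in 3 mouse tissues in 31 genes, picked by symbol from the 22298 gene identifiers of the count files. The set held 8 enzymes of the mevalonate and isoprenoid steps, 12 enzymes from squalene to cholesterol, 4 genes of sterol sensing, and 7 genes of uptake, intracellular transport, esterification and export. Bulk polyadenylated RNA was sequenced from liver and from the epididymal (eWAT) and inguinal (iWAT) white fat depots of C57BL/6 mice aged 12 weeks, with 3 libraries in each of 6 groups. In the WT groups both copies of Bckdha were floxed (Bckdha f/f) with no Cre. In the KO groups the same floxed alleles were combined with the RIP-Cre transgene (Bckdha f/f;RIP-Cre). Bckdha encodes a subunit of the dehydrogenase that commits branched-chain amino acids to breakdown. RIP stands for the rat insulin promoter, so the recombinase is aimed at insulin-producing beta cells of the pancreas, with known activity in part of the hypothalamus, and not at fat or liver. All 18 libraries therefore came from floxed animals, and a group with RIP-Cre alone was not analysed here, so an effect of the transgene cannot be told apart from that of the deletion. The labels do not say that libraries came from separate animals, so the p-values measure only how far these libraries scatter, which may be technical.

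As background, cells make cholesterol from acetyl-CoA. The mevalonate steps build isoprenoid units, squalene synthase joins them, and a long series of enzymes turns squalene into lanosterol and then cholesterol. When sterols are scarce in the endoplasmic reticulum, the escort protein Scap carries the transcription factor SREBP2 (gene Srebf2) to the Golgi, where it is cut and freed to switch on nearly all genes of synthesis. When sterols are plentiful, Insig1 and Insig2 hold Scap back, and oxysterols activate LXR receptors, which raise the exporters Abca1 and Abcg1 and the ligase Mylip. Liver is the main site of synthesis for export, whereas adipocytes store large amounts of free cholesterol around their lipid droplet.

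Library totals ran from 16796147 to 28039742 expected counts. Hepatocyte markers summed to between 209828 and 282795 CPM (counts relative to the TMM-scaled library total, here with all 18 libraries scaled together) in liver, and adipocyte markers to between 9912 and 54338 CPM in 11 of the 12 fat libraries. eWAT WT replicate 2 stood apart: its 14 adipocyte markers summed to only 306 CPM, and its 10 epididymis markers to 48866 CPM. In the other fat libraries these markers summed to 42.7 CPM or less, except in eWAT KO replicates 1 and 3, at 1101 and 1258 CPM. Nearly all of that was a single gene, Crisp1, at 1079.7 and 1234 CPM: the other 9 markers summed to 21.1 and 24.3 CPM there, below the 35.6 CPM of eWAT WT replicate 1. Results in eWAT are therefore also given without WT replicate 2. Markers of tissue other than fat were not limited to that library. The 6 spermatid markers summed to 9.85, 107 and 1.27 CPM in eWAT WT replicates 1 to 3 and 623, 0.232 and 6.16 in KO. The 7 mammary epithelium markers, Epcam among them, summed to 44.7, 628 and 1.52 CPM in WT and 155, 2.13 and 116 in KO. The part of such tissue in the genotype difference was not tested. Bckdha itself was 219, 52.9 and 348 CPM in the eWAT WT libraries and 103, 147 and 160.3 CPM in KO when scaled within eWAT, and its KO minus WT log2 fold change was -0.08 (SE 0.18) in liver, -0.04 (SE 0.38) in iWAT and -0.59 (SE 0.66) in eWAT, none past the test. These tissues lie outside the cells that RIP-Cre targets, so Bckdha checks no label here. In bulk tissue, fewer cells of a type and less RNA per cell cannot be told apart.

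Promoters of 3 members are printed as a description, and no expression result depends on them. Cyp51 had the lowest p of the members in eWAT and Insig1 the lowest in iWAT. Of the 25 members with a promoter entry, only Hmgcs1 had a match to the sterol regulatory element searched. The sequences are from RefSeq on GRCm38.p6, read 5′ to 3′ on the gene's strand, and hold only bases upstream of both the RefSeq start and the start of the GENCODE gene: 250 for Hmgcs1 and 201 each for Cyp51 and Insig1, whose GENCODE genes begin earlier. Capitals mark matches on either strand to TCACNCCAC (a sterol regulatory element bound by SREBP), CCAAT (bound by NF-Y) and GGGCGG (bound by Sp1). The windows lie at chr5:4104747-4104947 (minus strand) for Cyp51, chr5:28071162-28071362 (plus) for Insig1 and chr13:119690101-119690350 (plus) for Hmgcs1.
Cyp51: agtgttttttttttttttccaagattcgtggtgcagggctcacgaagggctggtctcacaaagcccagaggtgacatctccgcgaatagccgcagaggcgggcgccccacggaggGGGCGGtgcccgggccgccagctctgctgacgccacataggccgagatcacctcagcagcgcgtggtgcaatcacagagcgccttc
Insig1: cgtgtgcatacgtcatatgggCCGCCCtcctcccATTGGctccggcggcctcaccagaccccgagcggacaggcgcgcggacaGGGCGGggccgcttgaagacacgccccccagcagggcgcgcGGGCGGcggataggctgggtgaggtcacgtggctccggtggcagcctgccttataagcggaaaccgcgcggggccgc
Hmgcs1: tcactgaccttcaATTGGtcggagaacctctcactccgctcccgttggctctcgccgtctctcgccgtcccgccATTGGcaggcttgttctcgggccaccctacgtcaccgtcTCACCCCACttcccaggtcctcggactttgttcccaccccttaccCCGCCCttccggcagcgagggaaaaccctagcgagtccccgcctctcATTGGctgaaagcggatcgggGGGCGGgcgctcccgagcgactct
The printed Hmgcs1 window held 1 sterol regulatory element, 3 CCAAT and 2 GGGCGG matches. That of Insig1 held 1 CCAAT and 3 GGGCGG matches, and that of Cyp51 held 1 GGGCGG match. Cyp51 also held 1 CCAAT match at -29 from the RefSeq start, in the stretch not printed. Over RefSeq's full windows of 300 bases, from 250 before to 50 after its start, 25 of the 31 members had an entry. CCAAT was found in 22 of these 25 (88.0%), against 41.1% of 27025 symbols with a promoter and 42.3% of the 11941 among them whose gene passed the low-count filter in at least 1 tissue. GGGCGG was found in 23 of 25 (92.0%), against 38.2% and 64.0%. TCACNCCAC was found in 1 of 25 (4.0%), against 1.44% and 1.43%. Matches of different motifs may share bases and were counted separately. A match is a description of the sequence, and an absent match says only that these letters were not in the window.

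The order of the members differed between liver and fat. Levels between genes are compared here in deposited FPKM, which divides by gene length, as the median with the lowest and highest of 6 libraries. In liver, Fdps, which makes farnesyl diphosphate, led at 410 FPKM (223 to 487), followed by the sterol demethylase Msmo1 at 199 (185 to 225) and the sterol isomerase Ebp at 151 (114 to 171). The ranges of Msmo1 and Ebp did not overlap, and those of Fdps and Msmo1 met only at their edges. In both fat depots the lysosomal cholesterol carrier Npc2 led, at 131 FPKM (116 to 598) in eWAT and 147 (117 to 172) in iWAT. Behind it in eWAT came Hmgcs1 at 65.1 FPKM (49.3 to 75.8), Acat2 at 62.0 (32.8 to 109) and Sc5d at 60.7 (27.3 to 115), whose ranges overlapped. In iWAT the next were Insig1 at 77.9 FPKM (36.6 to 174), Acat2 at 70.7 (45.6 to 99.1) and Sc5d at 66.2 (37.5 to 86.5), also overlapping. At the other end, Soat1, which esterifies cholesterol, was lowest in liver at 1.48 FPKM (1.04 to 2.47), and Mylip was next at 2.06 (0.66 to 2.87), with overlapping ranges. Tm7sf2, a sterol C14 reductase, was the lowest of the 31 in iWAT at 2.78 FPKM (2.45 to 3.62), against 91.0 (53.1 to 119) in liver.

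In eWAT, most enzymes of cholesterol synthesis were lower in the libraries from KO mice. Of the 20 enzymes, 19 had a negative KO minus WT log2 fold change (16 on deposited FPKM), with a median of -1.05, while the median of all 14657 genes tested was -0.02. In 12 of the 20 every KO library lay below every WT library, and in none above. Over all 31 members 13 lay wholly below and 1, Stard4, above, where 7.54% of all genes lay wholly below and 7.46% above. No member passed edgeR's adjusted threshold of 0.05, nor did any gene (0% of those tested). At an unadjusted p under 0.05 there were 14 members lower and 1 higher, against 2.91% and 2.84% of all genes. Without eWAT KO replicate 1 the count of 15 members at that p was 7, and without KO replicate 3 it was 9. The genes at that p were 466 of 14680 and 319 of 15214 in those fits, against 843 of 14657 with all libraries. DESeq2 called 6 members lower, Cyp51, Lss, Nsdhl, Idi1, Acat2 and Mvd, and 0.283% of the genes it tested, while limma-voom called no member.

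**Figure D1:**
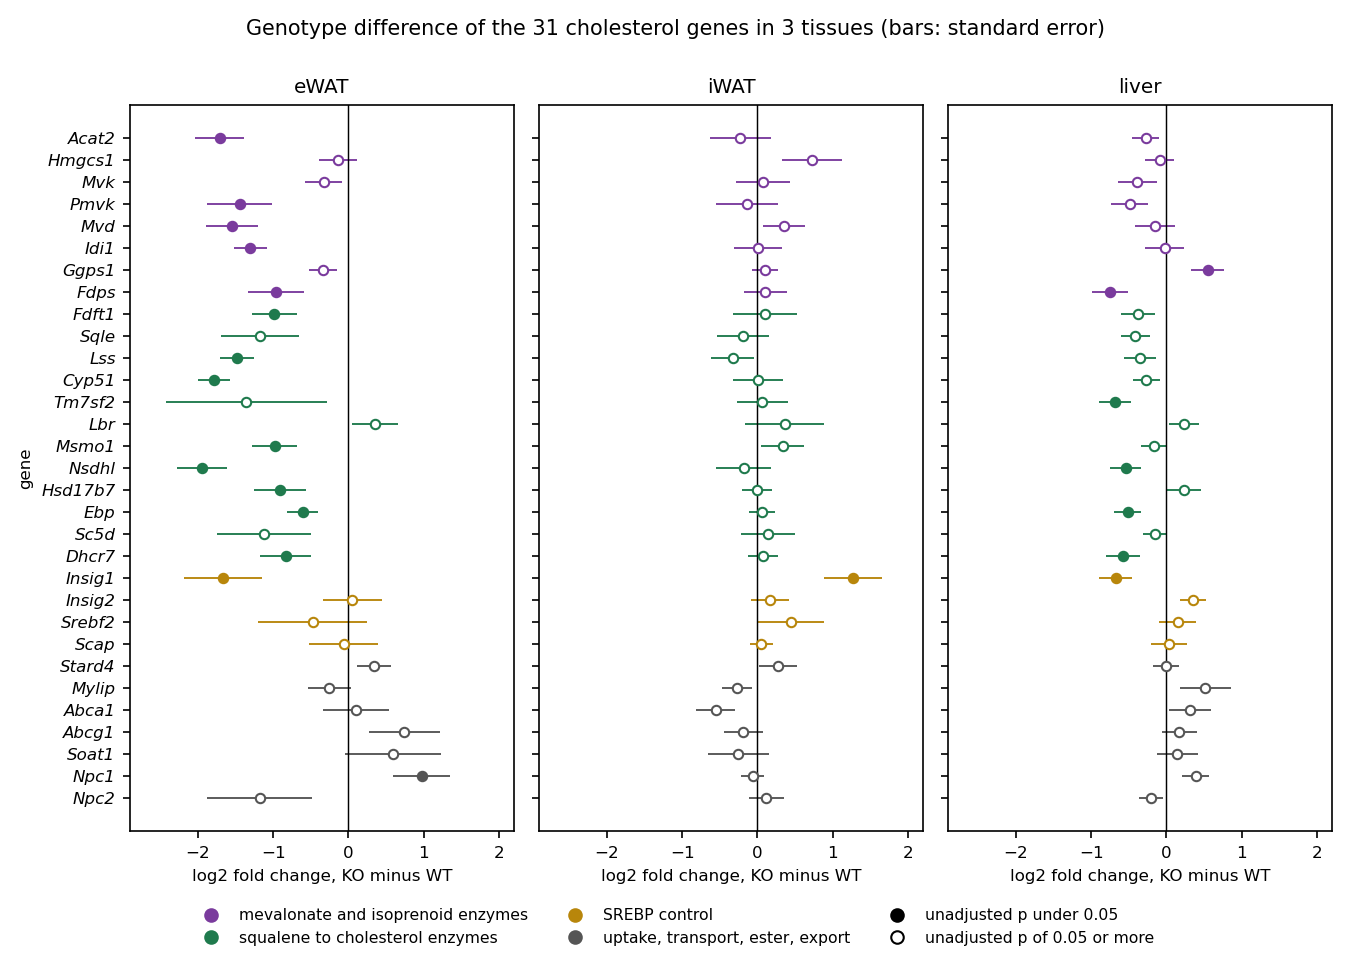
KO minus WT log2 fold change of each of the 31 genes (rows) in eWAT, iWAT and liver (panels) from edgeR, with standard errors as bars. Filled points have an unadjusted p under 0.05; no point passed the adjusted threshold. In eWAT 19 of the 20 synthesis enzymes lie left of 0, in liver 17 of 20, and in iWAT 6 of 20.

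The mevalonate and isoprenoid enzymes were all lower on average in eWAT from KO mice, by 0.14 to 1.71 log2 units. Values by library are CPM scaled within the tissue, for replicates 1, 2 and 3 in that order. Acat2, the cytosolic thiolase that joins acetyl-CoA units at the start of the pathway, was at 246, 174 and 324 CPM in WT and 61.3, 72.3 and 93.5 in KO. Its log2 fold change was -1.71 (SE 0.33), with an edgeR adjusted p of 0.706. A near-identical neighbouring gene, Acat3, shares sequence with Acat2, so reads could have been split between them. Mvd, the decarboxylase that ends the mevalonate steps, was at 32.9, 21.5 and 38.7 CPM in WT and 7.4, 13.1 and 11.2 in KO, with a log2 fold change of -1.55 (SE 0.34, edgeR adjusted p = 0.706). Idi1, which isomerises the isoprenoid unit, was at 89.9, 100 and 84.3 CPM in WT and 30.0, 46.0 and 35.1 in KO, with a log2 fold change of -1.30 (SE 0.22, edgeR adjusted p = 0.706). For all 3 the highest KO library lay below the lowest WT library. Hmgcs1, the synthase ahead of the mevalonate step, had overlapping groups, at 222, 214 and 214 CPM in WT and 159, 245 and 184 in KO. Ggps1, which makes the geranylgeranyl anchor of proteins rather than sterol, differed by -0.33 (SE 0.18) on counts, while its mean on deposited FPKM was 14.6 in WT and 15.3 in KO, with overlapping groups.

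From squalene on, 11 of 12 enzymes were lower on average in eWAT from KO mice. Cyp51, the cytochrome that removes a methyl group from lanosterol, had the lowest p of all members. It was at 185, 192 and 219.7 CPM in WT and 51.6, 57.1 and 64.5 in KO, so the highest KO library lay far under the lowest WT library. Its log2 fold change was -1.78 (SE 0.21), with an edgeR adjusted p of 0.668. Fitted with all 18 libraries together, which shares the estimate of the spread over tissues, its adjusted p was 0.0289 and no other member passed. Lss, which closes squalene epoxide into lanosterol, was at 49.0, 60.1 and 43.0 CPM in WT and 17.1, 16.1 and 21.1 in KO, a log2 fold change of -1.49 (SE 0.22, edgeR adjusted p = 0.706). Nsdhl, a sterol dehydrogenase of the demethylation steps, was at 85.8, 143 and 71.3 CPM in WT and 29.7, 20.8 and 27.3 in KO, a log2 fold change of -1.95 (SE 0.33, edgeR adjusted p = 0.706). Neither gene's groups overlapped. Lbr, a sterol reductase better known as a receptor that anchors chromatin at the nuclear envelope, was the exception in direction, at 0.35 (SE 0.30).

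**Figure D2:**
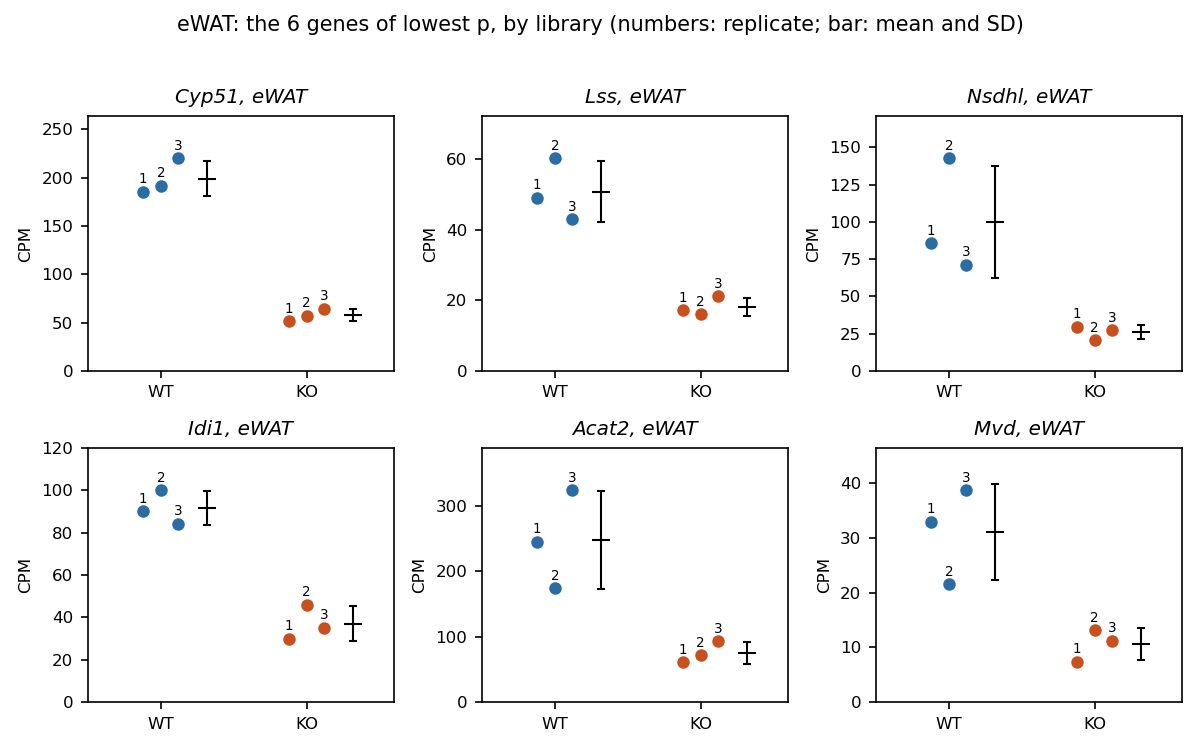
CPM (scaled within eWAT) of the 6 members of lowest p, with each library as a point numbered by replicate, WT in blue and KO in orange, and the mean with SD of 3 libraries as a bar. In each panel every KO library lies below every WT library; Cyp51 was at 51.6 to 64.5 CPM in KO and 185 to 219.7 in WT.

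The sensing genes did not move together in eWAT. Insig1, itself a target of SREBP2, was at 493, 139 and 348 CPM in WT and 73.5, 119.7 and 115 in KO, a log2 fold change of -1.67 (SE 0.52, edgeR adjusted p = 0.706). Insig2, Srebf2 and Scap lay between -0.47 and 0.05, and their groups overlapped. Of the 7 genes of uptake, transport, esters and export, 5 were higher on average in KO and 2 lower, with a median of 0.34. Npc1, the membrane protein that passes cholesterol out of lysosomes, was the only member higher at an unadjusted p under 0.05, at 76.9, 37.7 and 53.8 CPM in WT and 73.7, 151 and 107 in KO, with overlapping groups. Stard4, a cytosolic sterol carrier, was at 34.8, 32.9 and 22.4 CPM in WT and 38.7, 36.2 and 39.2 in KO, with every KO library above every WT library and a log2 fold change of 0.34 (SE 0.23, edgeR adjusted p = 0.715).

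The epididymal library WT replicate 2 shaped some members and not others. It held more than 1.5 times the mean of WT replicates 1 and 3 for 9 members and was lower by more than the same ratio for 11. Tm7sf2 was at 5.93, 48.0 and 5.29 CPM in the WT libraries, so that replicate 2 held 8.56 times the mean of the others. Npc2, also known as a secreted protein of the epididymis, was at 442, 1975 and 507 CPM, Srebf2 at 56.2, 239 and 35.2, Soat1 at 23.6, 79.4 and 15.1 and Sqle at 45.1, 111 and 30.9. Without this library, 18 of the 20 enzymes were lower in KO, with a median of -0.86, while the all-gene median was 0.16. In 15 of them every KO library lay below WT replicates 1 and 3. With fewer WT libraries groups come apart more easily, and the share of all genes apart in this way was not counted. At an unadjusted p under 0.05 there were 16 members and 2545 of 14957 genes without this library. With it there were 15 members and 843 of 14657 genes. The median of all 31 members moved from -0.91 to -0.42. Cyp51 kept a log2 fold change of -1.78 (SE 0.16), and Insig1 went from -1.67 to -2.01, while Tm7sf2, Srebf2, Scap, Insig2 and Abca1 turned sign. No member passed the edgeR adjusted threshold without it, and the lowest adjusted p was 0.235.

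Markers of other cell types differed with genotype in eWAT as well. The mean of 9 of the 14 adipocyte markers was lower in KO, with sums of 34759, 306 and 54338 CPM in WT and 13556, 26046 and 18493 in KO. All 12 macrophage markers were higher on average in KO, with sums of 213 to 1093 CPM in WT and 991 to 1931 in KO. All 8 T cell markers were higher too, at low sums of 6.33 to 7.88 CPM in WT and 8.45 to 13.2 in KO. Of 8 smooth muscle markers 7 were higher, with sums of 392, 1448 and 298 CPM in WT and 3183, 211 and 3058 in KO, so KO replicate 2 lay below every WT library. All 6 erythroid markers were lower, with sums of 9384, 452 and 10525 CPM in WT and 3164, 6621 and 3054 in KO. None of these markers was at 0 in all eWAT libraries. The mean log2 CPM of the 20 enzymes, scaled over all 18 libraries, was 5.48, 5.51 and 5.48 in WT and 4.47, 4.53 and 4.65 in KO. In the epididymal WT replicate 2 that mean covers single enzymes from 0.228 (Sc5d) to 8.56 (Tm7sf2) times the mean of the other WT libraries. The part of these cell types in the genotype difference was not tested. On deposited FPKM, whose all-gene median was 0.31, 16 of 20 enzymes were lower in KO and the median was -0.57.

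**Figure D3:**
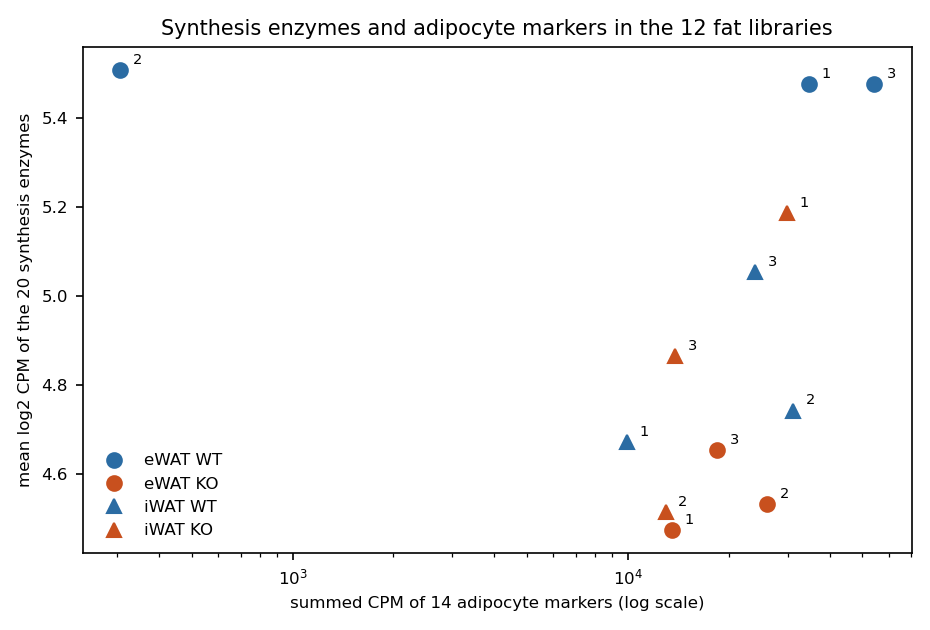
Mean log2 CPM of the 20 synthesis enzymes (vertical) against the summed CPM of 14 adipocyte markers (horizontal, log scale) in the 12 fat libraries, scaled over all 18 libraries; circles are eWAT, triangles iWAT, blue WT, orange KO, and numbers are replicates. The 3 eWAT WT libraries lie between 5.48 and 5.51, at adipocyte sums of 34759, 306 and 54338; the lowest sum is that of the epididymal replicate 2.

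In iWAT the enzymes showed no common direction. Of 20, 14 were higher and 6 lower on average in KO (15 and 5 on deposited FPKM), with a median of 0.07, against 0.01 for all 14226 genes. In none of the 20 were the groups apart. Among the 31 members only Insig1 lay wholly above and only Abca1 wholly below on scaled CPM, where 4.34% and 5.03% of all genes did. No member and no gene (0%) passed edgeR's adjusted threshold. At an unadjusted p under 0.05 there was 1 member, higher, against 1.37% of genes higher and 2.80% lower. Without WT replicate 1 there were 2 members and 1158 of 14477 genes at that p. DESeq2 and limma-voom called no member.

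Insig1 was the member of lowest p in iWAT, and it was higher in KO. It was at 114, 111 and 185 CPM in WT and 492, 216 and 283 in KO. Its log2 fold change was 1.27 (SE 0.38), with an edgeR adjusted p of 1.0. Abca1, which loads cholesterol onto apolipoprotein A1, was at 362, 658 and 467 CPM in WT and 322, 359.8 and 333 in KO (-0.55, SE 0.26, edgeR adjusted p = 1.0). The KO libraries of Abca1 lay close together and just under the WT range on scaled CPM. On deposited FPKM its groups overlapped, with KO replicate 2 at 39.2 FPKM and WT replicate 1 at 36.5. Hmgcs1 was at 77.4, 132 and 117 CPM in WT and 286, 125 and 128 in KO (0.72, SE 0.40), where KO replicate 1 alone exceeded the WT libraries by much. Mylip, the ligase that marks lipoprotein receptors for breakdown, was at 110.0, 152 and 137 CPM in WT and 92.8, 125 and 114 in KO (-0.27, SE 0.20). Mvd was at 16.0, 15.1 and 21.3 CPM in WT and 27.4, 14.7 and 24.8 in KO (0.35, SE 0.28), and Msmo1 at 26.0, 32.2 and 37.3 and 56.5, 29.6 and 34.3 (0.34, SE 0.29). The groups of these last 4 genes overlapped.

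In iWAT the enzymes varied more among libraries of a genotype than between the genotypes. KO replicate 1 was the highest of the 6 libraries for 14 enzymes, and KO replicate 2 the lowest for 12. The mean log2 CPM of the enzymes, scaled within iWAT, was 5.09, 5.19 and 5.51 in WT and 5.74, 4.93 and 5.27 in KO. The adipocyte sums were 9912, 31149 and 23969 CPM in WT and 29861, 12986 and 13836 in KO, so KO replicates 1 and 2 were the highest and lowest of the KO group in both measures. In WT the orders differed: replicate 2 had the highest adipocyte sum and replicate 3 the highest enzyme mean. Of the 14 adipocyte markers 7 were higher and 7 lower on average in KO. Of 12 macrophage markers 10 were lower in KO, with sums of 2762 to 3014 CPM in WT and 1349 to 2002 in KO, and none was at 0 throughout. All 8 B cell and all 8 T cell markers were higher on average in KO, and all 6 erythroid and all 8 skeletal muscle markers lower. B cell markers summed to 1266, 3.84 and 537 CPM in WT and 334, 1163 and 1072 in KO. Skeletal muscle markers summed to 2.93, 419 and 2.43 CPM in WT and 29.9, 4.24 and 10.1 in KO. The part of these cell types in the Insig1 and Abca1 values was not tested.

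In liver, 17 of the 20 enzymes were lower on average in KO (14 of 20 on deposited FPKM, whose all-gene median was 0.09). The median of the enzymes was -0.31, and that of all 11915 genes tested was -0.0021. In 5 enzymes, Fdps, Sqle, Tm7sf2, Nsdhl and Ebp, every KO library lay below every WT library, and in Ggps1 above. Over the 31 members 7 lay wholly below and 2 wholly above, against 6.97% and 5.98% of all genes. No member passed edgeR's adjusted threshold, which 0.0504% of genes did. At an unadjusted p under 0.05 there were 6 members lower and 1 higher, against 3.17% and 2.87% of genes. DESeq2 and limma-voom called no member.

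Tm7sf2 was at 154, 147 and 154 CPM in WT and 122, 90.7 and 69.5 in KO. Its log2 fold change was -0.69 (SE 0.21), with an edgeR adjusted p of 0.596. Fdps was at 514, 651 and 599 CPM in WT and 482, 279 and 287 in KO (-0.75, SE 0.24, edgeR adjusted p = 0.603). For both genes KO replicate 1 lay near the WT range and the other KO libraries well under it. Insig1 was at 340.1, 323 and 509 CPM in WT and 286, 228 and 221 in KO (-0.67, SE 0.22, edgeR adjusted p = 0.611). Ebp was at 256, 316 and 245 CPM in WT and 213, 194 and 165 in KO (-0.51, SE 0.18, edgeR adjusted p = 0.665). The groups of Insig1 and Ebp were apart too on this scale, but on deposited FPKM those of Insig1 overlapped. Nsdhl was at 163, 166 and 153 CPM in WT and 142, 101 and 88.0 in KO (-0.54, SE 0.20, edgeR adjusted p = 0.703). Dhcr7, the reductase of the last step to cholesterol, was at 162, 142 and 189 CPM in WT and 146, 91.0 and 93.3 in KO (-0.58, SE 0.22, edgeR adjusted p = 0.735), and there KO replicate 1 lay within the WT range. Ggps1 went the other way at a low level, 3.87, 3.66 and 3.43 CPM in WT and 4.68, 5.93 and 5.44 in KO (0.55, SE 0.22, edgeR adjusted p = 0.763).

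**Figure D4:**
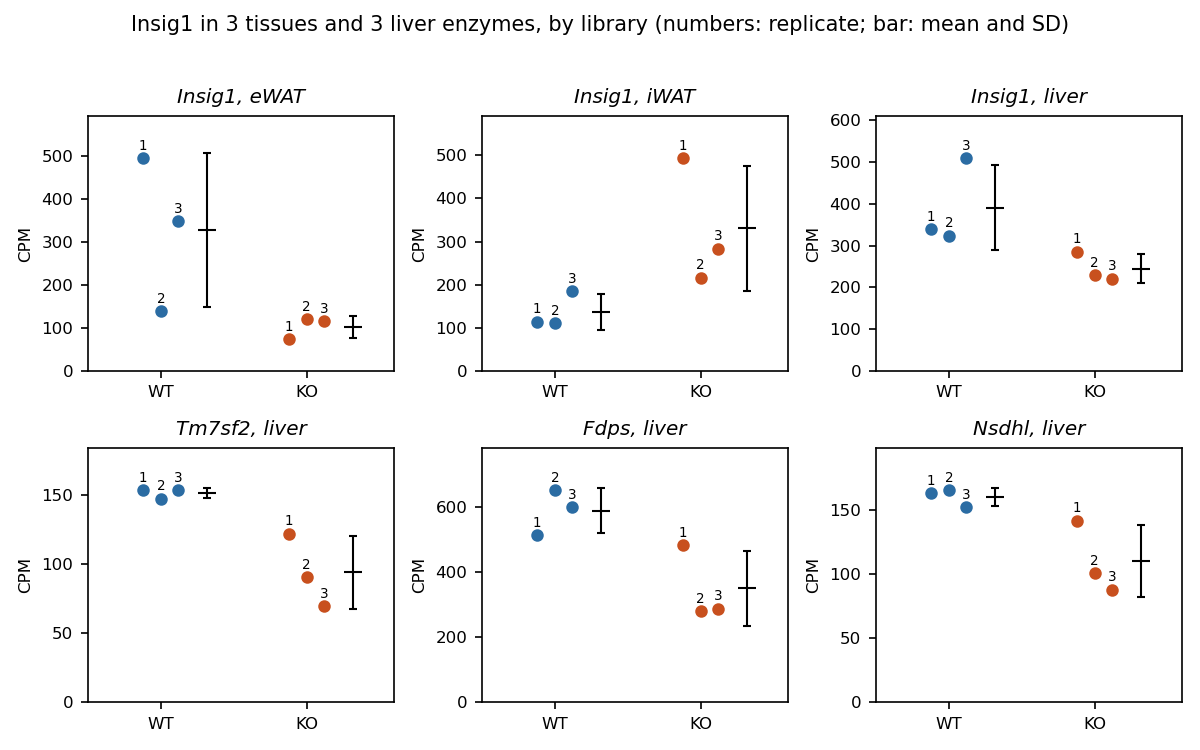
CPM scaled within each tissue, with each library as a point numbered by replicate, WT in blue and KO in orange, and the mean with SD of 3 libraries as a bar. Insig1 (upper row) is lower in every KO library in eWAT and liver and higher in every KO library in iWAT; in liver (lower row) KO replicate 1 is the highest KO library for Tm7sf2, Fdps and Nsdhl.

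The KO libraries differed among themselves in liver. The mean log2 CPM of the enzymes, scaled within liver, was 7.02, 7.04 and 7.06 in WT and 7.03, 6.72 and 6.53 in KO. KO replicate 3 was the lowest of 6 libraries for 12 enzymes. Without KO replicate 1, 15 members had an unadjusted p under 0.05, of which 13 were lower, and the enzyme median was -0.53. Of all genes 831 of 12151 had such a p in that fit, against 720 of 11915 with all libraries. Without KO replicate 2 or without KO replicate 3 only 1 member had, with 406 of 12130 and 514 of 12115 genes. Without WT replicate 1, 2 or 3 there were 4, 10 and 5 members, with 934 of 12091, 1186 of 12160 and 626 of 12140 genes. No such fit called a member after adjustment. Hepatocyte markers summed to 232144 to 282795 CPM in WT and 209828 to 243448 in KO, with 8 of 10 lower on average in KO and none at 0. All 6 erythroid markers were lower on average in KO, with sums of 2525 to 3642 CPM in WT and 1009 to 2185 in KO. Their part in the enzyme values was not tested. The transport genes were not lower as a group in liver: 5 of 7 were higher on average, Npc1 wholly so at 91.3, 73.8 and 105 CPM in WT and 118, 111 and 125 in KO (0.39, SE 0.18), while Npc2 lay wholly below (-0.20, SE 0.16). On deposited FPKM the groups of Npc2 overlapped.

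The genotype effects of pairs of tissues were compared by their interaction with tissue. Insig1 gave the widest differences. Its genotype effect in iWAT exceeded that in eWAT by 2.89 (SE 0.65) log2 units (edgeR adjusted p = 0.969). The effect in liver lay under that in iWAT by -1.93 (SE 0.45, edgeR adjusted p = 0.684). Cyp51 differed between iWAT and eWAT by 1.75 (SE 0.39, edgeR adjusted p = 0.969) and between liver and eWAT by 1.56 (SE 0.32, edgeR adjusted p = 0.787). Mvd differed between iWAT and eWAT by 1.87 (SE 0.44, edgeR adjusted p = 0.969). No member passed edgeR's adjusted threshold in any of the 3 interactions, nor did any gene (0%).

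For iWAT minus eWAT, 11 members were higher at an unadjusted p under 0.05 and 1, Npc1, lower. At that p 1.48% of all genes were higher, and 739 of 15455 differed in either direction. Without iWAT KO replicate 1 the count of 11 was 7, and 587 of 15882 genes differed at that p in either direction. The median of the 20 enzymes was 1.08, against 0.04 for all genes. DESeq2 called Cyp51, Mvd and Insig1 higher in this interaction, where it called 6 of 18485 genes higher and 25 lower. For liver minus eWAT 8 members, all of them enzymes, were higher at an unadjusted p under 0.05, where 2.88% of genes were. DESeq2 called Cyp51 and Acat2 higher there, and 21 of 18174 genes higher and 20 lower. For liver minus iWAT 2 members, Insig1 and Ebp, were lower, where 2.28% of genes were. Leaving out single libraries moved this count between 1 and 6, the highest without liver KO replicate 1. In that fit 844 of 14963 genes differed at that p in either direction, against 705 of 14673 with all libraries. DESeq2 called Insig1 lower, and 19 of 18411 genes higher and 16 lower. Limma-voom called no member in any of them. The comparisons with eWAT share its WT libraries, replicate 2 included. Without that library the median of the members for iWAT minus eWAT moved from 0.89 to 0.52.

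On TMM-scaled counts, RNA of most synthesis enzymes was higher in the liver libraries than in either fat depot. These differences rest on scaled totals and are not shares of the reads. Relative to iWAT, with both genotypes in the fit, 18 of the 20 enzymes rose and 2, Ggps1 and Lbr, fell by edgeR's adjusted threshold, with a median log2 difference of 3.03. Relative to eWAT 18 rose and 1, Ggps1, fell, with a median of 2.85. All 4 sensing genes rose in both comparisons, although on deposited FPKM the sensing gene Srebf2 and the enzyme Acat2 turned sign in both. Of the 7 genes of uptake, transport, esters and export, Stard4 and Npc1 rose in both, and Mylip, Abcg1, Soat1 and Npc2 fell in both. Over the 31 members 24 rose and 6 fell against iWAT, where 31.7% of all genes rose and 45.8% fell. Against eWAT 24 rose and 6 fell as well, where 29.6% rose and 40.4% fell.

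**Figure D5:**
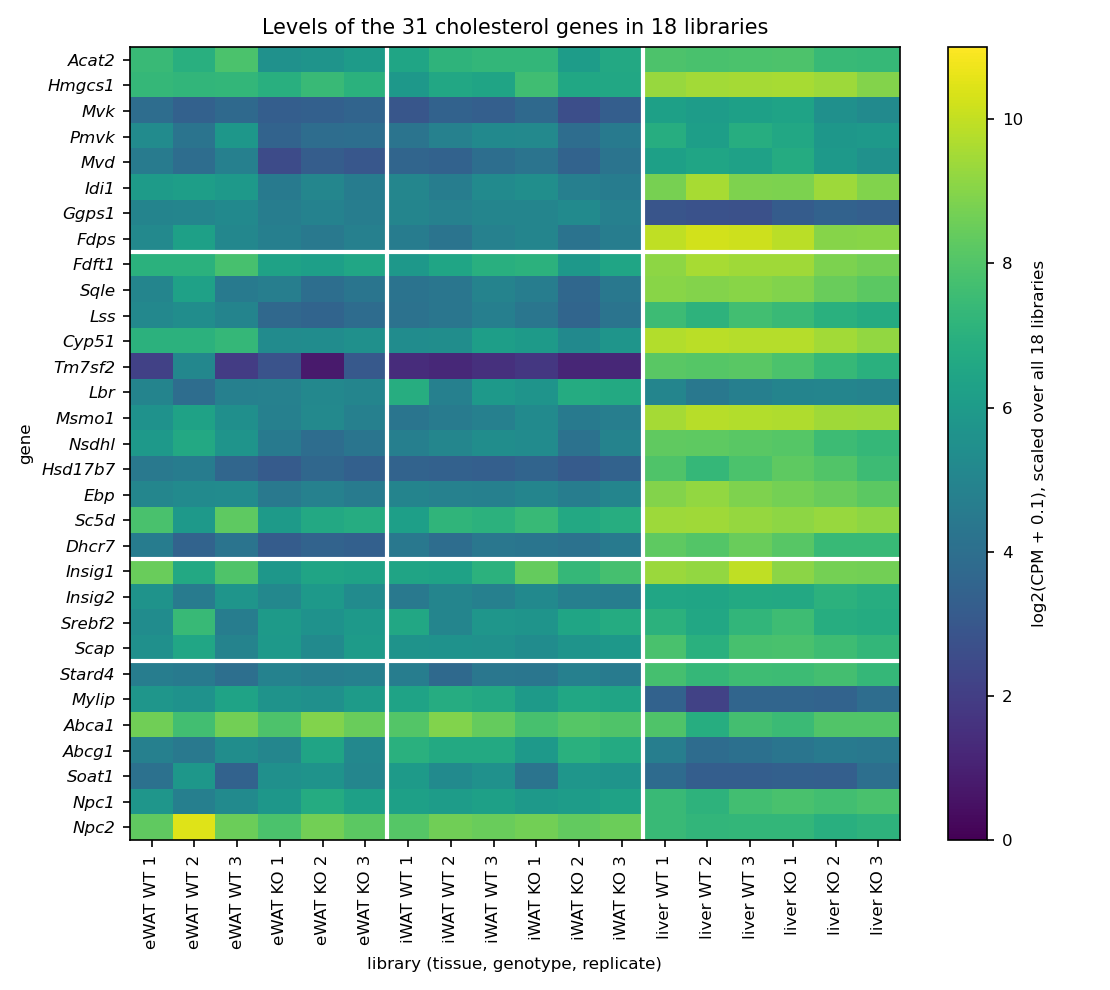
log2(CPM + 0.1), scaled over all 18 libraries, of the 31 genes (rows, by role) in each library (columns, by tissue and genotype). Most enzyme rows are brightest in the 6 liver columns, with Ggps1 the darkest exception there; Tm7sf2 is dark in all iWAT columns, at 2.18 to 3.39 CPM, and reaches its lowest value, 1.63 CPM, in eWAT KO replicate 2.

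For the genes with the widest differences, levels are given as the lowest, median and highest CPM of 6 libraries, scaled over all 18. Tm7sf2 was at 128, 255 and 295 in liver, 2.18, 2.43 and 3.39 in iWAT and 1.63, 5.61 and 34.0 in eWAT. Its log2 difference was 6.46 (SE 0.24) for liver against iWAT and 4.71 (SE 0.64) against eWAT, with edgeR adjusted p of 1.62e-10 and 5.65e-05. The highest eWAT value came from WT replicate 2, and no fat library reached the liver range. Fdps was at 515, 958 and 1213 in liver, 18.3, 24.6 and 31.9 in iWAT and 21.9, 30.7 and 75.5 in eWAT, differences of 5.14 (SE 0.27) and 4.65 (SE 0.29). Msmo1 was at 668, 779.6 and 901, 19.4, 24.7 and 38.5 and 27.3, 40.2 and 80.6 in the same order, differences of 4.91 (SE 0.21) and 4.25 (SE 0.27). Neither gene had a fat library in the liver range. Hsd17b7, the ketoreductase of the demethylation steps, was at 158, 245 and 308 in liver and 8.92, 10.7 and 11.5 in iWAT, a difference of 4.47 (SE 0.18). Dhcr7 was at 168, 273 and 362 in liver and 9.18, 11.3 and 24.8 in eWAT, a difference of 4.27 (SE 0.24).

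Ggps1, Mylip, Abcg1, Soat1 and Npc2 were lower in liver than in both depots. Mylip was at 4.44, 11.7 and 15.2 CPM in liver, 63.2, 89.9 and 111 in iWAT and 45.2, 52.8 and 84.4 in eWAT, differences of -3.02 (SE 0.25) and -2.37 (SE 0.27). Ggps1 was at 6.59, 8.24 and 11 in liver, 27.5, 31.7 and 38.5 in iWAT and 25.2, 30.2 and 36.8 in eWAT, differences of -1.91 (SE 0.14) and -1.79 (SE 0.18). The fat and liver ranges of both genes were apart. Soat1 was at 9.63, 10.1 and 16.0 in liver, 18.5, 49.3 and 62.8 in iWAT and 10.9, 39.8 and 56.1 in eWAT, differences of -1.96 (SE 0.27) and -1.55 (SE 0.37), and here the liver and eWAT ranges overlapped. Abcg1, which exports cholesterol to high-density lipoprotein, was at 14.6, 20.3 and 26.0 in liver and 61.3, 105 and 126 in iWAT, a difference of -2.36 (SE 0.20). Npc2 was at 123, 154 and 177 in liver and 234, 342 and 1397 in eWAT, a difference of -1.60 (SE 0.39). Abca1 fell against eWAT (-0.67, SE 0.27, edgeR adjusted p = 0.0395) and missed the threshold against iWAT (-0.50, SE 0.24, edgeR adjusted p = 0.0708).

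The size of these tissue differences depends on the scaling. The all-gene median was -0.34 for liver against iWAT and -0.29 against eWAT on TMM-scaled counts, and -1.22 and -1.12 on deposited FPKM. On FPKM 19 members rose and 8 fell against iWAT, and of 12238 genes tested 1479 rose and 9454 fell. The counts gave 4655 and 6721 of 14673 genes. Against eWAT 18 members rose and 7 fell on FPKM, where 1269 of 12660 genes rose and 8927 fell. The enzyme median on FPKM was 1.56 against iWAT and 1.33 against eWAT, so that relative to the all-gene median it was 2.78 and 2.45, compared with 3.36 and 3.14 on counts. On FPKM Acat2 was called lower against iWAT, and Srebf2 passed in neither comparison. Lbr turned sign against eWAT on FPKM and was called lower there.

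Between the fat depots few members differed. Lbr, Abcg1 and Mylip rose in iWAT against eWAT, and none fell, where 9.01% of all genes rose and 8.88% fell. Lbr was at 28, 80.3 and 116 CPM in iWAT and 15.4, 29.9 and 35.2 in eWAT (lowest, median and highest), a log2 difference of 1.38 (SE 0.31) with an edgeR adjusted p of 0.0169. Abcg1 was at 61.3, 105 and 126 and 21.9, 34.4 and 85.5, a difference of 1.32 (SE 0.31, edgeR adjusted p = 0.0186). Mylip was at 63.2, 89.9 and 111 and 45.2, 52.8 and 84.4, a difference of 0.55 (SE 0.17, edgeR adjusted p = 0.0429). The ranges of all 3 overlapped between the depots. In iWAT, B cell markers summed to 334 to 1266 CPM in 5 libraries and to 3.84 in WT replicate 2, which also had the lowest Lbr, 155, 38.3 and 81.4 CPM within iWAT for WT replicates 1 to 3. In eWAT those markers summed to 2.07 to 6.80 CPM. The part of B cells in the Lbr difference was not tested. The 14 enzymes lower in iWAT did not pass the threshold. Without iWAT KO replicate 1, the library of highest enzyme levels, Hmgcs1, Msmo1, Idi1 and Insig2 also passed as lower in iWAT. In that fit 1342 of 15882 genes were called lower in iWAT, against 1373 of 15455 with all libraries. Without the 3 eWAT libraries that held Crisp1, an epididymal transcript, no member passed, and the call of Mylip was lost in 14 of 22 alternatives.

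Of 34 other genes of sterol sensing and handling, 30 passed the low-count filter in eWAT, 31 in iWAT and 32 in liver, and none of them passed edgeR's adjusted threshold for genotype. In eWAT the lowest p was that of Nceh1, which frees cholesterol from esters, at 17.6, 14.4 and 9.11 CPM in WT and 31.4, 33.5 and 30.1 in KO (1.21, SE 0.29, edgeR adjusted p = 0.706). Srebf1, the sister of Srebf2 that drives fatty acid synthesis, was at 1180, 269 and 1708 CPM in WT and 294, 316 and 481 in KO (-1.53, SE 0.71, edgeR adjusted p = 0.706), with WT replicate 2 under every KO library. In iWAT the carrier Stard5 (-0.54, SE 0.17) and the lysosomal lipase Lipa (-0.64, SE 0.25) were lower in every KO library than in any WT library. In liver Cyp7a1, the rate-limiting enzyme of bile acid synthesis, was at 113, 91.2 and 124 CPM in WT and 151, 213 and 235 in KO (0.87, SE 0.21, edgeR adjusted p = 0.485). The lipoprotein receptor Vldlr was at 1.12, 0.872 and 0.799 CPM in WT and 2.42, 2.2 and 1.56 in KO (1.14, SE 0.33, edgeR adjusted p = 0.553). For both every KO library lay above every WT library. Between tissues, 21 of these genes rose and 8 fell in liver against iWAT, 20 rose and 8 fell against eWAT, and only Rnf145, a ligase that acts on Scap, rose in iWAT against eWAT (0.54, SE 0.13).

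Some members share their place in the genome with another gene, and the sources used here do not say whether the libraries kept strand. Protein-coding genes on the opposite strand overlap Mvd, Ggps1, Fdft1, Cyp51, Lbr and Npc1, and genes on the same strand overlap Fdps and Tm7sf2. Cyp51, on chromosome 5 from 4081145 to 4104746 (GRCm38, minus strand), overlaps Akap9, and Fdft1 overlaps Ctsb, an abundant lysosomal protease. Reads in the shared stretches cannot be assigned with certainty for these genes.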

How the data were processed

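Polyadenylated RNA from eWAT, iWAT and liver was sequenced on an Illumina NovaSeq instrument, per the labels' protocols. Per the submitters' processing notes the build was mm10, and the tools named were RSEM, HISAT2, StringTie 1.3.1, Bowtie2 2.2.8, fastp 0.18.0, edgeR and DESeq2, with no order or role stated. For each gene and library the authors deposited an expected count, an estimate that need not be whole (8.57% of values were not). They also deposited FPKM values, which are scaled by gene length and library depth.

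Here, expected counts were rounded, and 22255 of 22298 identifiers were matched to GENCODE M21 symbols. Genes were kept with edgeR's filterByExpr (minimum count 10, minimum total 15), and all 31 members passed in every comparison. Libraries were TMM-scaled and tested with edgeR 4.0.16 (robust quasi-likelihood fit) in R 4.3.3, with Benjamini-Hochberg adjustment over all genes and a threshold of 0.05. KO was compared with WT within each tissue, tissues with genotype as a covariate, and genotype effects by their interaction with tissue. Standard errors were derived as |log2 fold change| over the root of the F statistic. DESeq2 1.42.0, limma 3.58.1 (voom, and log2(FPKM + 1) or log2(FPKM + 0.1) with a mean FPKM of at least 1), other scaling, no filter, left-out libraries and a replicate block were alternatives. Library totals of 16796147 to 28039742 limit the precision of low genes, and standard errors cover these libraries only. The members, the lists and the alternatives were chosen with earlier results of these data known. Values are given by library for the 6 members of lowest p in each genotype comparison and the 4 widest called differences per direction between tissues, and other members by range and count. Members given by library beyond this rule were named after their values were seen.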

Additional observations from a re-analysis of the deposited data

Results flagged for a closer look

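Insig1 lay apart between genotypes in opposite directions in iWAT and in the other tissues: every KO library was above every WT library in iWAT and below in eWAT and liver. Its genotype effect differed by 2.89 log2 units for iWAT minus eWAT and by -1.93 for liver minus iWAT. Ggps1 was below in every KO library in eWAT and above in liver, a difference of 0.91 log2 units for liver minus eWAT. These directions are on TMM-scaled counts: on deposited FPKM Ggps1 overlapped in eWAT, with a mean of 14.6 in WT and 15.3 in KO, and Insig1 overlapped in liver. None of the 3 differences passed edgeR's adjusted threshold when tested as an interaction (adjusted p of 0.969, 0.684 and 0.866), while DESeq2 called both Insig1 differences.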

How the results depend on the processing

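Counts of members past the adjusted threshold differed between tools and with the libraries kept. DESeq2 called 6 members for KO minus WT in eWAT (0 with edgeR), 6 for iWAT minus eWAT (3 with edgeR), and 3, 1 and 2 for the genotype effect of iWAT minus eWAT, liver minus iWAT and liver minus eWAT (0 each with edgeR). One fit of all 18 libraries called 1 member in eWAT and 6 for iWAT minus eWAT. For iWAT minus eWAT, leaving out single libraries gave 2 to 7 members, and leaving out the 3 eWAT libraries with Crisp1 gave 0. The median log2 fold change of the members in eWAT, -0.91, was -0.43 on log2(FPKM + 1) with or without the filter, -0.50 on log2(FPKM + 0.1), -0.48 without the Crisp1 libraries, and -0.92 to -0.42 with single libraries left out. No gene given by library under the naming rule changed direction under an alternative, but Acat2, called higher in liver than in iWAT on counts, was called lower on log2(FPKM + 1). Over all genes the calls ranged from 0 to 128 in eWAT, 0 to 58 in iWAT and 0 to 63 in liver (0, 0 and 6 with edgeR), and from 38 to 4566 for iWAT minus eWAT (2765). At an unadjusted p under 0.05, the 11 members higher for the interaction of iWAT minus eWAT and the 8 for liver minus eWAT were 6 and 4 on log2(FPKM + 1). The cause of these changes was not tested. Deviations from the group means, compared between samples of the same replicate number, gave correlations from -0.63 to 0.23. With 3 libraries per group such values cannot show whether the numbers pair samples. The main fits treated all libraries as unpaired. With the replicate block the eWAT median was -0.77, no member was called for genotype, and 2 rather than 3 were called for iWAT minus eWAT. At these depths low genes such as Ggps1 in liver, near 4 CPM, are measured less precisely.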
